A study of Mus musculus with 6 samples.

Results

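The mouse mitochondrial genome (chrM) carries 37 of the 56884 genes in the mouse count table, and these 37 genes were followed across all 6 libraries. They were taken by position alone, as every gene listed on mouse chrM, and comprise 13 protein genes, 2 rRNA genes and 22 tRNA genes. The livers came from male athymic BALB/c (nu/nu) mice, 6 weeks old at implantation, that all carried orthotopic tumors of QGY-7703, a human hepatocellular carcinoma (HCC) line. In week 1 after implantation the mice were given adeno-associated virus (AAV8) through the tail vein, encoding siControl in one group and siAATF in the other, and were followed for 3 weeks. The virus used the thyroxine-binding globulin promoter, which is active in hepatocytes and not in other liver cells. Each group had 3 libraries of total liver RNA. The labels do not say that each library was a separate animal, so p-values measure the spread between these libraries.

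Mitochondrial DNA (mtDNA) is a small circular genome present in many copies per cell. Its 2 strands are transcribed as long precursors, and cleavage at the tRNAs that punctuate them releases the mRNAs and rRNAs. The 13 proteins are all subunits of the oxidative phosphorylation complexes, whose other subunits are encoded in the nucleus, and the 2 rRNAs build the mitochondrial ribosome. Hepatocytes are rich in mitochondria, so that mitochondrial transcripts are abundant in liver RNA. AATF, the target of the silencing, is a nuclear protein with roles in transcription and cell survival.

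Part of the mitochondrial genome can hardly be read in data of this kind, because the mouse nuclear genome holds a near-perfect copy of it and reads that matched several places had been discarded. In the GRCm39 assembly, chr1:24650616-24655269 (minus strand) matched chrM:6390-11042 over 4654 aligned bases with 99.936% identity, and the copy spans 28.5% of the mitochondrial genome. A total of 2 substitutions and 1 inserted base separate the 2 sequences, and the longest run without a difference was 3067 bases. Each pair below is shown because it holds one of these differences, which are the only places inside the copy where the reference sequences can tell a read of chr1 from a read of chrM. The capital marks the base that differs, and the chr1 strand is the one that matches chrM. The substitutions are A6393T and T9461C, counted along chrM with the chrM base first, and A6393T lies at the edge of the copy, so that the chr1 sequence to its left is unrelated. The third pair differs in a run of A, 8 long on chrM and 9 long on chr1, inside the tRNA gene mt-Tr. The chrM stretch shown for it starts in the end of mt-Nd3 (chrM:9459-9806) and runs into mt-Tr (chrM:9808-9875), so its label refers to the run of A.
chrM:6363-6423, in mt-Co1: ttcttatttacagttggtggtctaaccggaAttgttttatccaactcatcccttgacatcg
chr1:24655236-24655296, minus strand: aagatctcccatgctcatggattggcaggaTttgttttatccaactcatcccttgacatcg
chrM:9431-9491, across the start of mt-Nd3: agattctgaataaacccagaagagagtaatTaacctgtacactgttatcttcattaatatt
chr1:24652168-24652228, minus strand: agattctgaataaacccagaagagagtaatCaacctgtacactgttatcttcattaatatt
chrM:9791-9858, in mt-Tr: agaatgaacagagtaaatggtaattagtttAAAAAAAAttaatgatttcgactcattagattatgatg
chr1:24651800-24651868, minus strand: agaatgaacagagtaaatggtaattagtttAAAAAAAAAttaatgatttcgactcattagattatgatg

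The copy covers the middle of the genome. With windows of 150 bases, the length of 1 sequenced read, every window centred in mt-Co2, mt-Atp8 and mt-Atp6 had an exact copy in the nuclear genome. The share was 99.5% for mt-Co3, 90.9% for mt-Nd4l, 62.6% for mt-Nd3, 58.2% for mt-Nd4 and 26.1% for mt-Co1, and it was 0 for both rRNA genes, mt-Nd1, mt-Nd2, mt-Nd5, mt-Nd6 and mt-Cytb. Over the whole mitochondrial genome 26.7% of 150-base windows and 23.4% of 300-base windows had an exact copy. The reference sequence is that of GRCm39, and the mtDNA sequence of these BALB/c mice was not read here. A second limit concerns mt-Atp8 and mt-Atp6, subunits of ATP synthase, which share 43 bases of the genome in different reading frames. The shared stretch, at chrM:7927-7969, is in capitals in the sequence shown here for that overlap, in which a read cannot be given to one gene.
chrM:7910-7984: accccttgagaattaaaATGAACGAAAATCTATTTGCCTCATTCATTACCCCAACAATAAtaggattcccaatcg

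The siAATF libraries held far more mouse RNA than the siControl libraries. The siControl libraries held 703317, 213022 and 913584 mouse gene counts, against 42563694, 11835898 and 34966245 for siAATF, and the mouse part of the gene counts of both species was 0.778% to 1.93% for siControl and 97.9% to 99.0% for siAATF. Low genes are therefore measured with less precision in siControl. The mouse Aatf gene itself had siControl counts of 12, 1 and 23 and siAATF counts of 384, 109 and 340, and its log2 fold change was 0.93 (SE 0.47, adjusted p = 0.152, edgeR quasi-likelihood test with Benjamini-Hochberg adjustment), or -0.92 when scaled by library size alone. The direction thus turned with the scaling, and these counts do not show whether Aatf was silenced. The study reported lower AATF protein by immunoblot in the tissue around the tumor of siAATF mice. The groups are named here as the libraries were labelled.

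The share of mouse counts on mitochondrial genes was higher in every siAATF library than in any siControl library. It was 4.04% (95% Wilson interval 3.998 to 4.090), 10.5% (10.4 to 10.7) and 6.91% (6.86 to 6.96) in siControl replicates 1, 2 and 3. In siAATF it was 25.7% (25.73 to 25.76), 56.1% (56.06 to 56.11) and 20.8% (20.80 to 20.82). The intervals cover counting error only and are far narrower than the spread between libraries. The mean rose from 7.17% ± 3.26 (SD, n = 3) to 34.2% ± 19.1 (SD, n = 3), a ratio of 4.77, with p = 0.1 in a two-sided exact permutation test, the smallest p that 3 libraries against 3 allow. siAATF replicate 2 stood apart, and without it the ratio was 3.25. Non-coding genes also took 23.7% of the nuclear counts in that library, against 2.30% to 7.15% in the others.

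**Figure D1:**
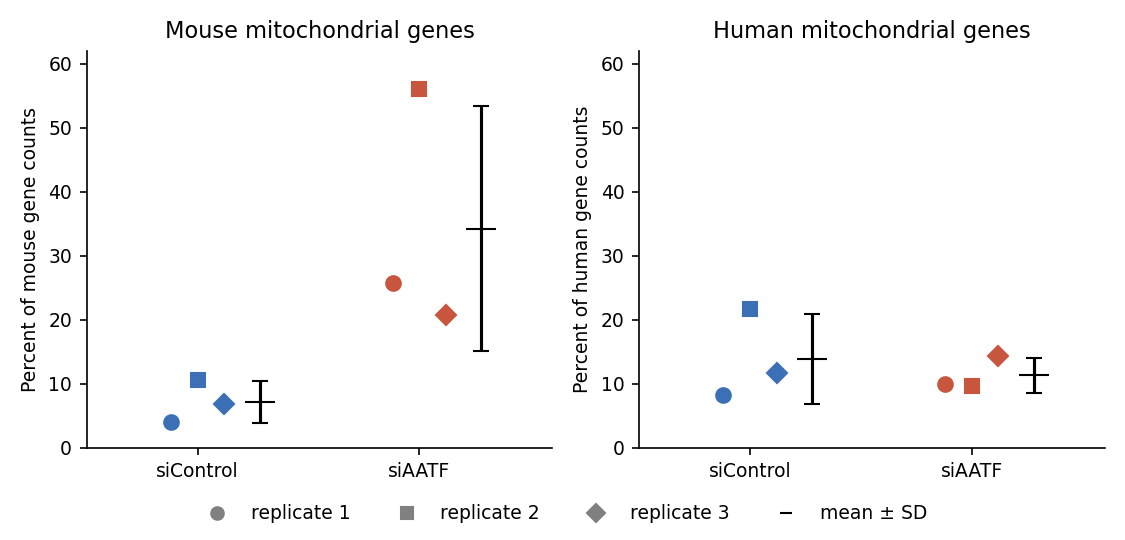
Percent of mouse gene counts on mouse mitochondrial genes (left) and percent of human gene counts on human mitochondrial genes (right) in each library, with the mean ± SD of 3 libraries as a bar beside the points. The mouse shares run from 4.04% to 10.5% in siControl and from 20.8% to 56.1% in siAATF, while the human shares of the groups overlap.

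The same share was taken for the human genes of each library. In siAATF the human genes held only 0.972% to 2.14% of the gene counts of both species. Human mitochondrial genes took 8.19%, 21.7% and 11.6% of human counts in siControl and 9.91%, 9.61% and 14.4% in siAATF. The groups overlapped, and the means of 13.9% ± 7.04 (SD, n = 3) and 11.3% ± 2.69 (SD, n = 3) gave p = 0.7 in the exact permutation test. Of the mitochondrial counts of both species together, mouse genes held 0.960%, 0.379% and 1.01% in siControl, below the mouse share of all gene counts in each of these libraries, and 99.6%, 99.6% and 99.2% in siAATF. Whether human reads assigned to mouse chrM took part in the siControl values was not tested. Nor was the part of mouse reads assigned to human chrM in the human values of siAATF.

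The protein and rRNA genes rose in siAATF relative to the mouse transcriptome, with the reservation that 3 of them had hardly any siControl counts. In the edgeR fit over all 18018 mouse genes tested, all 15 were called higher at an adjusted p under 0.05, beside 17.6% of all genes called higher and 14.4% called lower. Of the 15, mt-Atp8, mt-Nd3 and mt-Nd4l had 4, 3 and 1 siControl counts in total and reached the 10 counts needed for the test only through siAATF, so that their calls add no support. The 12 others had a median log2 fold change of 4.16, against 0.50 over all genes. In all 15 every siAATF library lay above every siControl library after TMM scaling (trimmed mean of M-values, which assumes that most genes do not change), beside 34.5% of all genes. Of the 22 tRNA genes 14 reached the total of 10 counts, but only 3 of these (mt-Tp, mt-Tn and mt-Tc) had at least 10 siControl counts, and 2 of the 3 were called higher. A further 4 had 1 to 9 siControl counts in total, of which 3 were called (mt-Tl1, mt-Tw and mt-Te), and 7 were at 0 in every siControl library, of which 4 were called (mt-Ti, mt-Ta, mt-Ty and mt-Th). These 11 passed the filter only through siAATF, which favours a call in that direction, and a rise is not established by it.

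Scaling changed the size of the rise. TMM factors were 1.77 to 1.97 in siControl and 0.419 to 0.681 in siAATF, which sets the median of all genes at 0.50. Scaled by library size alone that median was -1.30, and the median of the 15 protein and rRNA genes was 2.24. On that scale 8 of the 15 were called higher, beside 4.15% of all genes called higher and 40.4% called lower. Among the 8 were mt-Nd3 and mt-Nd4l, whose calls add no support. As plain CPM of mouse counts (each library scaled to 1000000 mouse gene counts, with no TMM), 14 of the 15 still had every siAATF library above every siControl library. The share of all genes that did so was counted only after TMM scaling (34.5%), so the 14 have no all-gene share beside them on this scale. Ratios of group means ran from 2.18 (mt-Atp8, which overlapped) to 16.5 (mt-Nd4l, with 1 siControl count). Without siControl replicate 2, 9 of the 15 were called, again with mt-Nd3 and mt-Nd4l among them, beside 12.6% of all genes called higher and 12.7% lower. The median of the 15 was then 4.58. Without siControl replicate 3, 6 of the 15 were called, beside 9.08% higher and 9.7% lower, and the median was 4.03. The 9 genes that lost their call in that case were mt-Rnr1, mt-Rnr2, mt-Nd1, mt-Nd2, mt-Co1, mt-Atp8, mt-Nd4, mt-Nd5 and mt-Cytb. The 6 that kept it were mt-Co2, mt-Atp6, mt-Co3, mt-Nd3, mt-Nd4l and mt-Nd6. Of these, mt-Nd3 and mt-Nd4l passed the filter only through siAATF and add no support, and only mt-Nd6 has no window copied in the nucleus.

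mt-Co1, the catalytic core of complex IV (cytochrome c oxidase), gave the most counts. It had siControl counts of 9416, 7016 and 22050, against 3475620, 1692308 and 2183990 in siAATF, which is 13388, 32936 and 24136 CPM of mouse counts in siControl and 81657, 142981 and 62460 in siAATF. All siAATF libraries were thus above all siControl libraries, and the log2 fold change was 3.98 (SE 1.40, adjusted p = 0.0451). This call was lost without siControl replicate 1, 2 or 3 in turn, with library size alone, with upper-quartile scaling and after thinning to the smallest mouse total. By group mean of TMM-normalized CPM mt-Co1 ranked 1 of all 56884 mouse genes in both groups, though it was the most counted gene in only 1 of the 3 siControl libraries. The other complex IV subunits, mt-Co2 and mt-Co3, form the rest of the enzyme's mitochondrially encoded core and lie inside the nuclear copy. mt-Co2 had siControl counts of 10, 13 and 41, against 5646, 1776 and 2159 in siAATF, with a log2 fold change of 3.50 (SE 0.60, adjusted p = 0.000840). mt-Co3 had 9, 14 and 27 counts against 7280, 2537 and 2833, with a log2 fold change of 4.17 (SE 0.66, adjusted p = 0.000523).

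Complex I, the NADH dehydrogenase that feeds electrons into the chain, has 7 mitochondrial subunits. The 5 with at least 10 siControl counts were called higher (beside 17.6% of all genes), as were mt-Nd3 and mt-Nd4l, which passed the filter only through siAATF. mt-Nd1, at which the membrane arm meets the peripheral arm, was at 5181, 12473 and 7386 CPM of mouse counts in siControl and at 29970, 54467 and 20084 in siAATF (log2 fold change 4.02, SE 1.18, adjusted p = 0.0198). mt-Nd2, a subunit of the proton-pumping membrane arm, was at 3021, 5018 and 3241 in siControl and at 21556, 39907 and 15862 in siAATF (log2 fold change 4.73, SE 1.13, adjusted p = 0.00676). For both genes the groups did not overlap. The log2 fold changes of the further pumping subunits were 4.40 for mt-Nd4 (SE 1.05, adjusted p = 0.00657) and 4.01 for mt-Nd5 (SE 1.02, adjusted p = 0.00968). The calls of mt-Nd1 and mt-Nd5 were lost with library size alone (adjusted p = 0.0890 and 0.0590) and without siControl replicate 2 (0.0744 and 0.0567) or 3. mt-Nd6 is the only protein gene on the minus strand of chrM. Its level was 1300, 1474 and 1245 CPM of mouse counts in siControl, the smallest spread relative to the mean among the 15 siControl groups, and 5220, 11851 and 5148 in siAATF, with a log2 fold change of 4.43 (SE 0.92, adjusted p = 0.00272). The small membrane subunits mt-Nd3 and mt-Nd4l rested on 3 and 1 siControl counts in all. mt-Nd3 had siControl counts of 0, 2 and 1, against 752, 255 and 350 in siAATF, a pooled ratio per mouse count of 9.26 (95% exact interval 3.16 to 45.0). Exact intervals of pooled ratios, here and for other genes, cover counting error only, since PCR copies are not independent molecules and the spread between libraries is left out. For mt-Nd4l, with 0, 0 and 1 counts against 217, 102 and 151, the ratio was 9.62 (1.72 to 381).

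mt-Cytb, the catalytic subunit of complex III that passes electrons from ubiquinol, was at 6103, 12773 and 8017 CPM of mouse counts in siControl and at 34495, 62783 and 32329 in siAATF. The groups did not overlap, and the log2 fold change was 4.22 (SE 1.21, adjusted p = 0.0179). The call was lost with library size alone (adjusted p = 0.0666) and without siControl replicate 2 (0.0757) or 3. mt-Atp6 forms the proton channel of ATP synthase (complex V). It had siControl counts of 16, 14 and 28, against 7366, 2939 and 3314 in siAATF, with a log2 fold change of 4.15 (SE 0.62, adjusted p = 0.000350). Its partner mt-Atp8 had 2, 0 and 2 counts against 150, 61 and 81. The pooled ratio for mt-Atp8 was 1.49 (95% exact interval 0.578 to 5.52), and the fit called it (log2 fold change 2.65, SE 0.81, adjusted p = 0.0248).

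**Figure D2:**
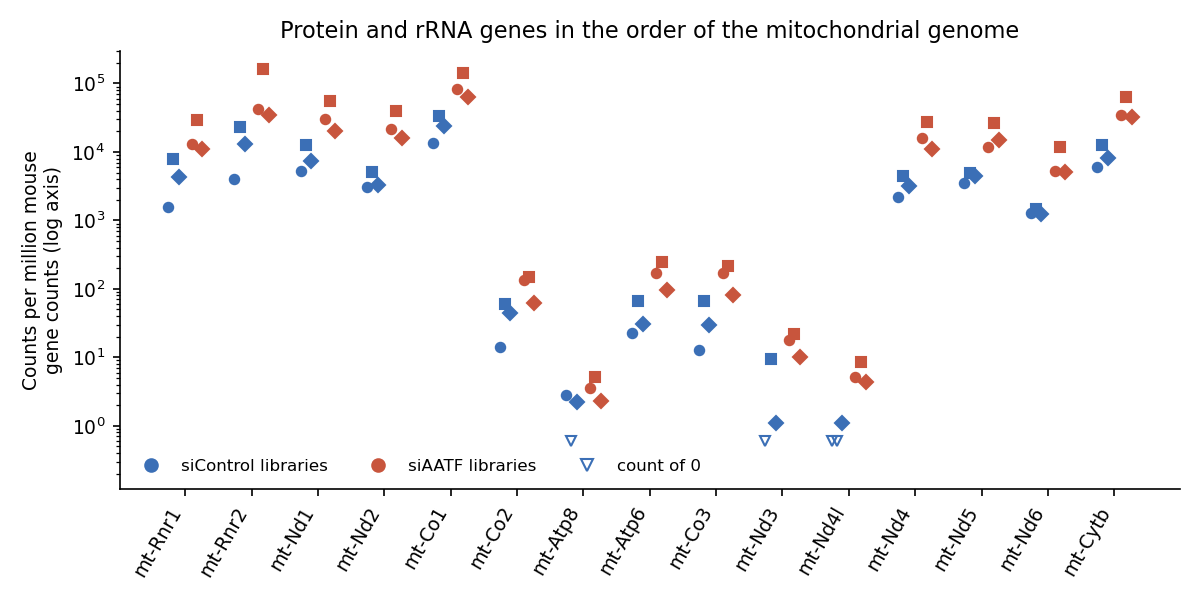
CPM of mouse gene counts (log axis) of the 13 protein and 2 rRNA genes in each siControl and siAATF library, in genome order. Circles, squares and diamonds are replicates 1, 2 and 3, and open triangles mark counts of 0. The siAATF points lie above the siControl points for every gene except mt-Atp8. The share of all mouse genes that separate in this way was counted only after TMM scaling (34.5%). The 6 genes from mt-Co2 to mt-Nd4l lie far below their neighbours in both groups.

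Both rRNAs of the mitochondrial ribosome rose as well. mt-Rnr1, the small subunit rRNA, was at 1550, 8004 and 4249 CPM of mouse counts in siControl and at 12943, 29485 and 11118 in siAATF (log2 fold change 3.96, SE 1.11, adjusted p = 0.0163). mt-Rnr2, the large subunit rRNA, was at 4064, 22754 and 12974 in siControl and at 42812, 163719 and 34614 in siAATF (log2 fold change 4.66, SE 1.53, adjusted p = 0.0344). Both calls were lost without siControl replicate 3, that of mt-Rnr2 also without siControl replicate 2, and both with library size alone. In siAATF replicate 2 mt-Rnr2 was the most counted mouse gene, with 16.4% of mouse counts, whereas mt-Co1 led in the other siAATF libraries with 8.17% and 6.25%.

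The shares of the protein and rRNA genes within the mitochondrial counts overlapped between the groups. Scaled by the mitochondrial total of each library, none of the 13 protein and 2 rRNA genes was called in the edgeR fit, and none had an unadjusted p under 0.05. Their log2 differences ran from -1.63 (mt-Atp8) to 1.18 (mt-Nd4l) with SEs of 0.91 to 1.76, so that changes of about that size within the mitochondrial counts could not be resolved. On this scale 0.272% of all mouse genes were called higher and 67.1% lower. All 15 genes had overlapping shares, with exact permutation p-values of 0.2 to 1.0. mt-Co1 took 33.1%, 31.2% and 34.9% of mitochondrial counts in siControl and 31.7%, 25.5% and 30.01% in siAATF. mt-Cytb took 15.1%, 12.1% and 11.6% against 13.4%, 11.2% and 15.5%. mt-Nd2 took 7.47%, 4.76% and 4.69% against 8.37%, 7.12% and 7.62%, so that 1 siControl library reached the siAATF range. Subunits of complex I together took 27.0% to 37.5% in siControl and 28.5% to 32.8% in siAATF.

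**Figure D3:**
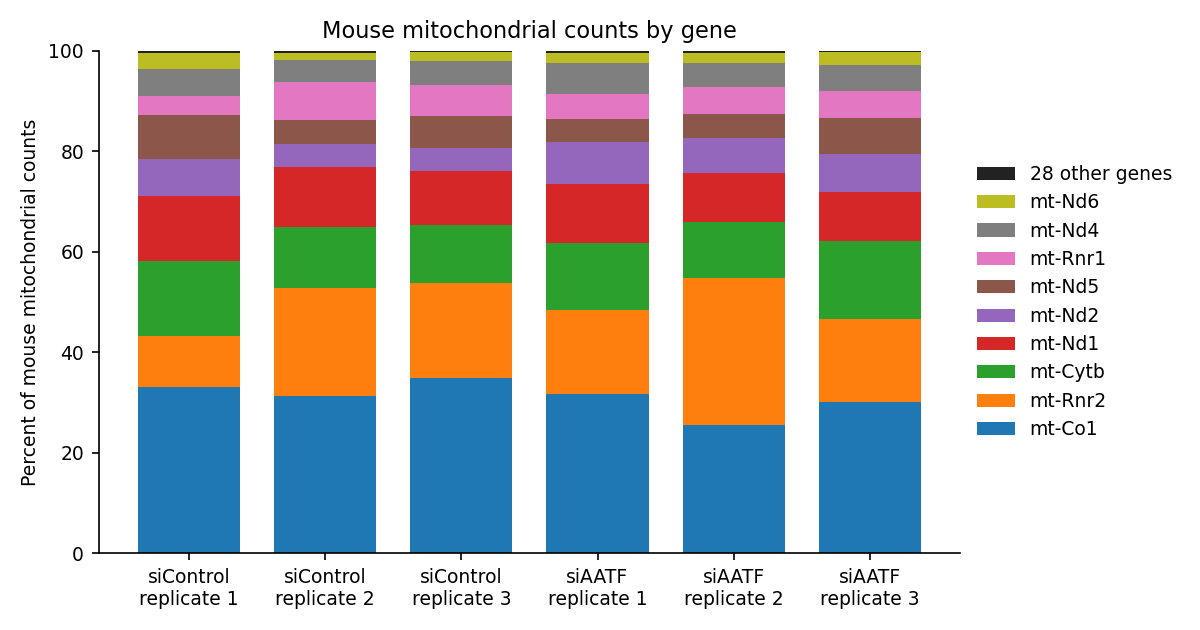
Share of each gene in the mouse mitochondrial counts of each library, as stacked bars that sum to 100%, with the 9 most counted genes by colour and the 28 other genes in black. mt-Co1 takes 25.5% to 34.9% in every library, and mt-Rnr2 varies most, from 10.05% in siControl replicate 1 to 29.2% in siAATF replicate 2.

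rRNA genes took 13.9%, 29.2% and 24.9% of mitochondrial counts in siControl and 21.7%, 34.4% and 22.0% in siAATF. The means of 22.7% ± 7.89 (SD, n = 3) and 26.0% ± 7.30 (SD, n = 3) gave p = 0.6 in the exact permutation test, and the direction turned without siControl replicate 1 (ratio 0.962) or siAATF replicate 2 (ratio 0.963). The balance between the rRNAs was less uniform. mt-Rnr2 had 2.62, 2.84 and 3.05 counts per count of mt-Rnr1 in siControl and 3.31, 5.55 and 3.11 in siAATF. The groups did not overlap (2.84 ± 0.216 against 3.99 ± 1.36, SD, n = 3 each, exact permutation p = 0.1, the smallest this design allows), and the largest value again belonged to siAATF replicate 2. This ratio was computed after the separate values had been seen. In the human counts of the same libraries the rRNA share of mitochondrial counts was 19.0%, 21.4% and 20.6% in siControl and 28.4%, 28.1% and 24.5% in siAATF, also without overlap (exact permutation p = 0.1).

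Levels per kilobase were compared for the genes with at most 60% of windows copied. mt-Co1 was highest in group mean, at 21.4% ± 1.19 of mitochondrial counts per kb in siControl and 18.8% ± 2.08 in siAATF (SD, n = 3 each), although 26.1% of its windows are copied. In siAATF it was followed by mt-Rnr2 (13.2% ± 4.58), mt-Cytb (11.7% ± 1.90), mt-Nd1 (10.8% ± 1.18), mt-Nd2 (7.42% ± 0.609), mt-Rnr1 (5.45% ± 0.171), mt-Nd6 (4.25% ± 0.457), mt-Nd4 (3.93% ± 0.468) and mt-Nd5 (3.02% ± 0.788). Counted per kb of windows with no exact copy, mt-Co1 was at 25.5% ± 2.82 and mt-Nd4 at 9.39% ± 1.12 in siAATF, so the whole-length value understates mt-Nd4 in particular. Among these steps only that from mt-Nd1 to mt-Nd2 held in all 6 libraries. mt-Co1 exceeded mt-Rnr2 in 5 of 6 libraries, and mt-Rnr1 exceeded mt-Nd6 in 5 of 6. mt-Nd1 exceeded mt-Cytb in 5 of 6, against the order of the siAATF means, and mt-Nd2 exceeded mt-Rnr1 and mt-Nd6 exceeded mt-Nd4 in 4 of 6. mt-Rnr2 exceeded mt-Cytb, and mt-Nd4 exceeded mt-Nd5, in 3 of 6, so that these pairs have no firm order. mt-Nd6, made from the other strand, exceeded mt-Nd5, which has no copied window either, in 5 of 6 libraries. Its reads cannot be told apart from RNA antisense to it, since the strand setting of the counting is not given in the sources used here.

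The 6 protein genes with over 60% of windows copied in the nucleus stood far below these levels. mt-Co2, mt-Atp8, mt-Atp6, mt-Co3, mt-Nd3 and mt-Nd4l together span 2998 bases and took 0.116% to 0.195% of mitochondrial counts in the 6 libraries, while the 5 protein genes with no copied window span 5482 bases and took 34.9% to 47.2%. Their levels per kb in siAATF ranged from 0.0769% ± 0.0189 for mt-Atp6 to 0.00556% ± 0.00111 for mt-Atp8 (SD, n = 3). These values describe what remains after reads with several matches were discarded, and not the abundance of these mRNAs. The nuclear side held counts of the same order. In the chr1 copy 7 annotated pseudogenes had siControl counts of 66, 65 and 161, against 32230, 11206 and 13435 in siAATF. The 5 that pair with mt-Co2, mt-Atp6, mt-Co3, mt-Nd3 and mt-Nd4l had 1.30 to 1.46 counts per count of these members in siControl and 1.16 to 1.21 in siAATF. Gm28661, the copy of mt-Co2, had 5306, 1778 and 2119 counts in siAATF, or 0.940, 1.00 and 0.981 per count of mt-Co2. Gm28438, the copy of mt-Nd3, which differs from it by the T9461C shown in the second pair of sequences, had 1829, 787 and 931 counts, or 2.43, 3.09 and 2.66 per count of mt-Nd3. From which of the 2 genomes these reads came cannot be told apart.

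**Figure D4:**
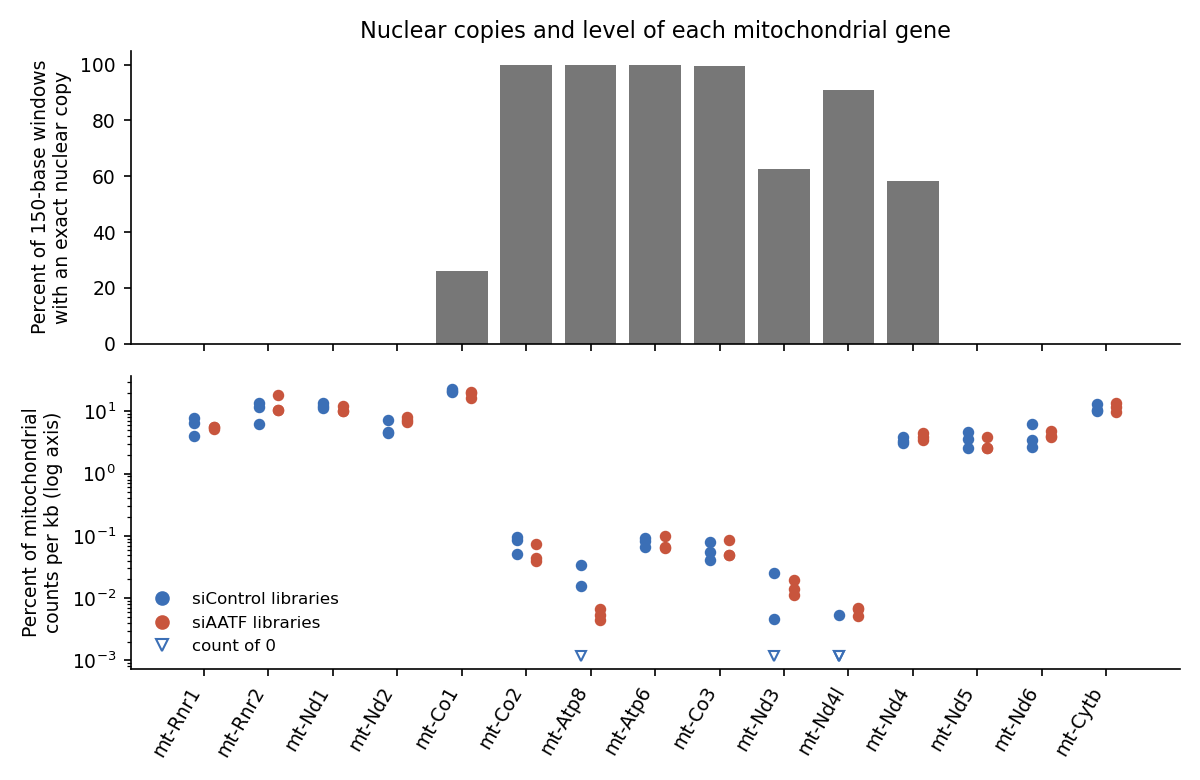
Top, percent of the 150-base windows centred in each gene that have an exact copy in the nuclear genome. Bottom, percent of mouse mitochondrial counts per kb of gene (log axis) in each siControl and siAATF library, with open triangles for counts of 0. The genes from mt-Co2 to mt-Nd4l, with 62.6% to 100% of windows copied, all lie below 0.1% per kb, and the others lie above 2.5% per kb.

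tRNA genes gave little signal, and most of it came from 4 genes on the minus strand. They took 0.157% to 0.281% of mitochondrial counts in the 6 libraries, and mt-Tp (tRNA-Pro) held 57.7% to 74.5% of the tRNA counts in siControl and 66.7% to 93.2% in siAATF. mt-Tc (tRNA-Cys) and mt-Tn (tRNA-Asn) together held 22.6% to 35.9% in siControl and 1.56% to 16.6% in siAATF, and mt-Te (tRNA-Glu) held 0% to 1.89% and 3.65% to 9.98%. Minus-strand genes, 8 of the 22, held 94.9% to 100% of tRNA counts in every library. Since the strand setting of the counting is not known, these counts, and the minus-strand totals, may include RNA of the opposite strand. The sequences of these 4 are shown because the tRNA results turn on them, in the direction of the tRNA and written with T.
mt-Tp, chrM:15356-15422, minus strand: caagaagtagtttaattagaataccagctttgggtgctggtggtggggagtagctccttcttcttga
mt-Te, chrM:14071-14139, minus strand: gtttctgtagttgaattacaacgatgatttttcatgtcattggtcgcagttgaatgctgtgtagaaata
mt-Tc, chrM:5192-5257, minus strand: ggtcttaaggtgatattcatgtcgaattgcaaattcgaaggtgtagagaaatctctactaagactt
mt-Tn, chrM:5089-5159, minus strand: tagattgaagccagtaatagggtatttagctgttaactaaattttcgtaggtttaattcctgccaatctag

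mt-Tp had siControl counts of 45, 43 and 79, against 27886, 14348 and 7627 in siAATF, and it rose with the rest of the genome (log2 fold change 4.58, SE 0.82, adjusted p = 0.00113). Its share of mitochondrial counts overlapped between the groups. mt-Te had 1, 0 and 2 counts against 1092, 619 and 1141, with a pooled ratio per mouse count of 19.5 (95% exact interval 6.65 to 94.5). Its share of mitochondrial counts was 0% to 0.00352% in siControl and 0.00932% to 0.0157% in siAATF, without overlap, but with all libraries and no other term it was not called within mitochondrial counts (log2 fold change 2.21, SE 1.24, adjusted p = 0.105), and without siAATF replicate 2 it was (adjusted p = 0.0382). mt-Tl1 (tRNA-Leu) had 2, 0 and 0 counts against 167, 78 and 185, with a pooled ratio of 4.40 (1.21 to 36.5). Of the 22 tRNA genes 15 were at 0 in every siControl library. Of these 15, 7 had at least 10 counts in siAATF, 4 had fewer and 4 (mt-Td, mt-Tk, mt-Tg and mt-Tr) were at 0 in all 6 libraries. The siAATF levels of the 15 did not exceed 4.06 CPM of mouse counts, while the limit that a count of 0 allows (3 counts) is 3.28 to 14.1 CPM in the siControl libraries, so no fold change is given for them. The whole windows of mt-Td, mt-Tk and mt-Ts1 are copied on chr1, whereas those of mt-Tg and mt-Tr, which hold or adjoin differences, are not.

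mt-Tn and mt-Tc were the only mitochondrial genes called in the fit scaled by mitochondrial counts, and both fell, beside 67.1% of all genes called lower and 0.272% higher on that scale. Without siAATF replicate 1 neither was called, and mt-Tc was also not called without siControl replicate 1 (adjusted p = 0.203), 2 (0.102) or 3 (0.0690). mt-Tn took 0.0492%, 0.0490% and 0.0253% of mitochondrial counts in siControl and 0.00197%, 0.00655% and 0.0113% in siAATF, without overlap, while the shares of mt-Tc overlapped (0.0127% to 0.0492% against 0.00228% to 0.0148%). Scaled by the mitochondrial total its log2 fold change was -2.62 (SE 0.97, adjusted p = 0.0114), and that of mt-Tc was -2.04 (SE 0.96, adjusted p = 0.0494). Relative to all mouse genes, mt-Tn was not called (log2 fold change 1.75, SE 0.75, adjusted p = 0.0953, or -0.29 with library size alone) and mt-Tc was called higher (2.33, SE 0.79, adjusted p = 0.0399), a call lost under 10 of 16 alternatives, among them library size alone (0.30), limma-voom and leaving out any siControl replicate or siAATF replicate 2. The siControl values rest on 14, 11 and 16 counts of mt-Tn and 14, 9 and 8 of mt-Tc. The siControl libraries also held 2242 to 3540 and 3521 to 5520 counts on a pair of human mitochondrial tRNA genes on the minus strand at human chrM:5657-5729 and chrM:5761-5826, against 36 to 61 and 51 to 121 in siAATF. Another such human gene, at chrM:15956-16023, held 2674 to 4688 counts in siControl and 24 to 59 in siAATF, while the share of mt-Tp among mouse mitochondrial counts overlapped between the groups. The part of human reads in the mouse counts was not tested. Genes of the minus strand together took 3.47%, 1.68% and 1.97% of mitochondrial counts in siControl and 2.30%, 2.35% and 2.62% in siAATF (2.37% ± 0.964 against 2.42% ± 0.175, SD, n = 3 each, exact permutation p = 1.0), of which mt-Nd6 made up the most.

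Nuclear genes for oxidative phosphorylation subunits also rose, with medians below those of the mitochondrial genes. In the TMM-scaled fit 64 of 73 nuclear subunit genes of complexes I, III, IV and V were called higher and 0 lower, beside 17.6% and 14.4% of all genes. With library size alone 2 were called higher and 1 lower, beside 4.15% and 40.4%, so that the number called rests on the scaling, while the list medians stayed above 0 (0.12 to 0.39). With TMM the list medians of log2 fold change were 2.18 for complex I (35 of 37 called), 2.11 for complex III (8 of 9), 1.86 for complex IV (10 of 11) and 1.92 for complex V (11 of 16). These lie 1.36 to 1.68 above the median of all genes, and with library size alone the distance was 1.43 to 1.69. Summed as CPM of nuclear mouse counts, complex I subunits were at 2235 to 2418 in siControl and at 3721 to 5749 in siAATF, and complex III subunits were at 1023 to 1177 and 1991 to 3081. The sums of complex IV subunits did not overlap either (1790 to 1972 against 2024 to 4122), while those of complex V did (2377 to 2978 against 2510 to 5323). Over all 9 lists of nuclear mitochondrial genes together, 90 genes of 163 were called, and 52 without siControl replicate 3, beside 31.98% and 18.78% of all genes in either direction.

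Single subunits varied around these medians. Ndufa10, a complex I subunit, had a log2 fold change of 3.20 (SE 0.50, adjusted p = 0.000451), while Ndufs1, which carries iron-sulfur clusters of complex I, had 1.28 (SE 0.42, adjusted p = 0.0357), or -0.43 with library size alone. Uqcrq of complex III was at 145, 143 and 110 TMM-normalized CPM in siControl and at 1064, 1021 and 1502 in siAATF (log2 fold change 3.18, SE 0.52, adjusted p = 0.000646). Atp5f1e, a subunit of the ATP synthase stalk, was at 82.7, 79.7 and 64.7 TMM-normalized CPM against 473, 517 and 549 (log2 fold change 2.76, SE 0.45, adjusted p = 0.000562). In siAATF replicate 2, Uqcrh and Ndufa4 were nearer to siControl than in the other siAATF libraries, at 130 and 122 TMM-normalized CPM beside siControl means of 88.9 ± 14.6 and 60.7 ± 14.9 (SD, n = 3). The log2 fold changes of these genes were 1.62 (Uqcrh, or -0.063 with library size alone) and 2.43 (Ndufa4).

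**Figure D5:**
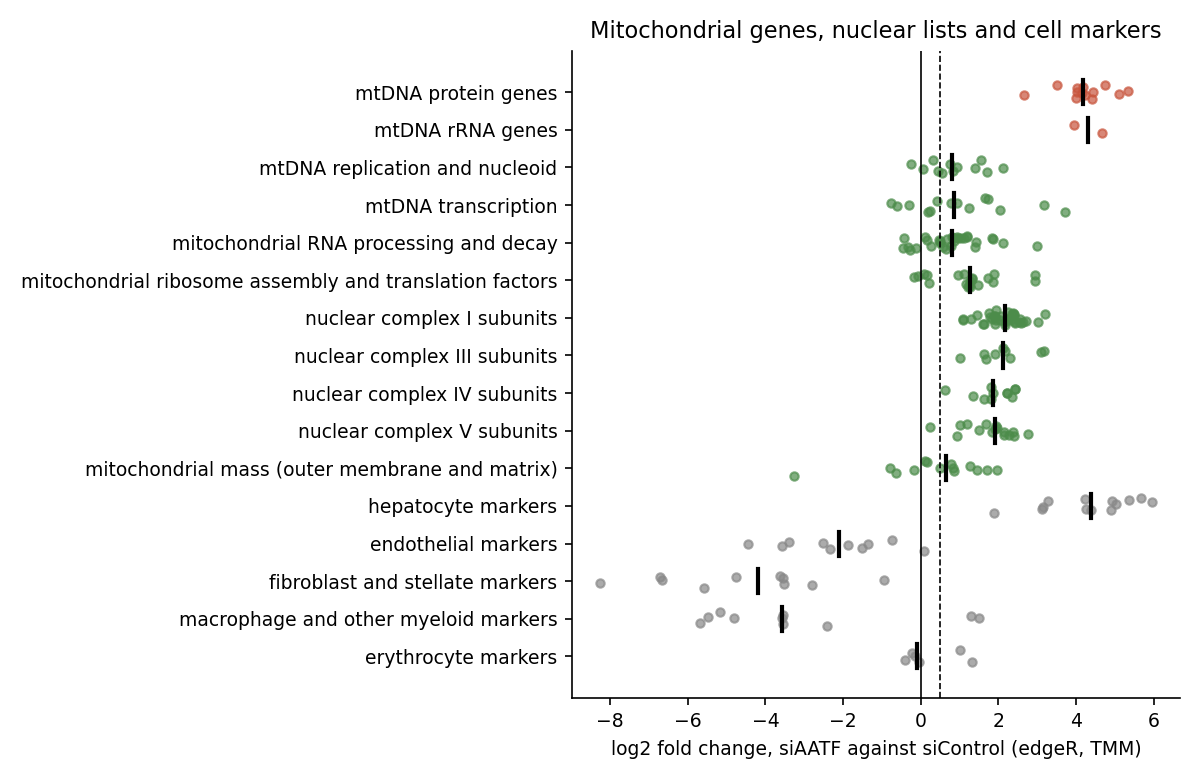
Log2 fold changes (siAATF against siControl, edgeR with TMM) of the mtDNA protein and rRNA genes (red), of genes in 9 lists of nuclear mitochondrial genes (green) and in 5 lists of cell type markers (grey), with 1 point per gene and a bar at each list median. The dashed line is the median of all mouse genes, 0.50. The mtDNA genes lie between 2.65 and 5.33, beside hepatocyte markers with a median of 4.38 and complex I subunits with a median of 2.18.

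Some of the nuclear genes that maintain and express mtDNA rose too. Over the lists for mtDNA replication, mtDNA transcription, mitochondrial RNA processing, and mitochondrial ribosome assembly and translation, 22 of 76 genes were called higher and 0 lower, beside 17.6% and 14.4% of all genes. With library size alone 0 were called higher and 14 lower, beside 4.15% and 40.4%, and the sums of all 4 lists as CPM of nuclear counts overlapped between the groups. Their list medians of 0.79 to 1.26 were 0.29 to 0.76 above that of all genes. Tfam, which packages mtDNA and starts its transcription, was at 15.3, 7.25 and 12.8 TMM-normalized CPM in siControl and at 33.4, 27.4 and 37.1 in siAATF (log2 fold change 1.39, SE 0.38, adjusted p = 0.0144). Polrmt, the mitochondrial RNA polymerase, had a log2 fold change of 1.24 (SE 0.40, adjusted p = 0.0327), and both genes had a log2 fold change below 0 with library size alone (-0.39 and -0.55). Twnk, the mtDNA helicase, was called higher (1.70, SE 0.41, adjusted p = 0.00746, or -0.062 with library size alone), while Polg, the catalytic subunit of the mtDNA polymerase, was not (0.56, SE 0.36, adjusted p = 0.264).

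Lrpprc and Slirp, which form a complex that stabilizes mitochondrial mRNAs, had log2 fold changes of 2.12 (SE 0.38, adjusted p = 0.00106) and 1.43 (SE 0.42, adjusted p = 0.0202), the latter -0.37 with library size alone. Ppargc1a, a coactivator that drives mitochondrial biogenesis, had 1 count in each siControl library and 399, 64 and 172 in siAATF. The pooled ratio per mouse count was 4.33 (95% exact interval 1.48 to 21.1), and its fit carries the same reservation as that of mt-Nd3. Hsd17b10, a part of the mitochondrial RNase that cuts precursors at the tRNAs, was at 21.7, 9.66 and 19.0 TMM-normalized CPM against 133, 92.2 and 196 (log2 fold change 3.00, SE 0.47, adjusted p = 0.000445). A list of outer membrane, inner membrane and matrix proteins was used as a measure of mitochondrial mass. In it 3 of 14 genes were called higher and 1 lower, near the all-gene share of 17.6% called higher, with a median of 0.64. With library size alone 0 were called higher and 6 lower (median -1.07), and the sums as CPM of nuclear counts overlapped (1774 to 2363 against 1045 to 2136). The gene that fell was Slc25a4, the ADP/ATP carrier of heart and muscle, at 95.5, 70.1 and 88.7 TMM-normalized CPM in siControl and 9.28, 4.24 and 12.6 in siAATF (log2 fold change -3.26, SE 0.45, adjusted p = 0.000197).

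Markers of the cell types of the liver moved with the groups. In bulk RNA, fewer cells of a type and less RNA per cell cannot be told apart. Of 13 hepatocyte markers 12 were called higher and 0 lower (median log2 fold change 4.38), beside 17.6% and 14.4% of all genes, and their summed CPM of nuclear mouse counts was 16572 to 32449 in siControl and 55170 to 111992 in siAATF. Fibroblast and stellate markers fell (0 of 10 higher, 9 lower, median -4.18), from sums of 16121 to 27021 to sums of 225 to 496. The sums of myeloid markers (0 of 10 higher, 7 lower, median -3.56) fell from 3301 to 6020 to 119 to 212. The log2 fold changes of 2 of them, Clec4f and Marco, were above 0, but neither was called (edgeR, adjusted p = 0.0705 and 0.380). Clec4f had siControl counts of 55, 1 and 24, against 2015, 225 and 1246 in siAATF. The sums of endothelial markers (0 of 10 higher, 6 lower, median -2.12) fell from 1181 to 1963 to 65.2 to 263. Erythrocyte markers overlapped, with 0 of 6 called in the edgeR fit, 0 at an unadjusted p under 0.05 and a median of -0.09. No marker of these lists was at 0 in every library of a group. The part of this difference in cell type markers in the rise of the mitochondrial genes was not tested.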

How the data were processed

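Each group, siControl and siAATF, had 3 libraries of total liver RNA, sequenced from cDNA made with a full-length, PCR-amplified SMART-Seq kit. The authors trimmed reads with Cutadapt, aligned them with STAR 2.7.11 to the joined human and mouse genomes, discarded reads with several matches or matches in both species, and counted the rest with featureCounts 2.0.1. The deposited values are these raw counts per gene, neither normalized nor filtered. PCR copies were not marked by molecular identifiers. Of the 56884 mouse genes 56323 were named from gencode, and all 37 mitochondrial genes had the same position there.

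Genes were tested with the quasi-likelihood method of edgeR 4.0.16 (R 4.3.3) on the whole mouse table with TMM, a total of at least 10 counts, the group as the only term and Benjamini-Hochberg adjusted p-values under 0.05. SEs were taken from the fold change and its F statistic. A second fit scaled each library by its chrM total. Shares per library were compared by two-sided exact permutation tests in scipy 1.17.1. Pooled ratios have exact conditional 95% intervals. Nuclear copies were found with BLAST 2.17.0 (word size 28) of chrM against GRCm39, and sequences were read from that assembly. Both fits were also run on simulated counts in which few genes differed between groups. In these data many genes differed, so that run is no test of the scaling used here. Alternatives were DESeq2 1.42.0, limma-voom (limma 3.58.1), other scalings, filters, thinning, the replicate number as a block, and leaving out each library.

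All mitochondrial genes with at least 10 counts were named where counts allowed, with the 5 tRNA genes of largest total in full. In the nuclear lists 7 genes were named beforehand, and per list the called genes with the largest and smallest fold change at a mean of at least 50 counts qualified. The genes and lists were chosen with earlier results of these data known.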

Additional observations from a re-analysis of the deposited data

How the results depend on the processing

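Of 29 mitochondrial genes tested 24 were called higher, beside 31.98% of all genes called in either direction, and 10 of the 24 passed the filter only through siAATF. The count was 10 of 29 with library size alone (beside 44.53%), 12 of 13 when every library had to hold 10 counts (49.13%) and 14 of 17 after thinning (31.72%), and ranged from 9 (18.78%) to 26 (35.72%) when 1 library was left out. Other tools, scalings and filters gave 18 (limma-voom, beside 30.91% of all genes called) to 26 (no filter, beside 25.36%). Among them were 21 with DESeq2 (beside 33.07%) and 19 with the filterByExpr filter (beside 44.99%). The study's rule of unadjusted p and a fold threshold gave 27, a count with no all-gene share beside it here. Each of these counts was within 1.5 times of 24. Within mitochondrial counts the 2 genes called became 1 with 10 counts in every library, 3 with the replicate block, and 0 (without siAATF replicate 1) to 3 with 1 library left out. The 90 calls among 163 genes of the nuclear lists (89 higher, 1 lower) became 23 with library size alone (2 higher, 21 lower, beside 4.15% and 40.4% of all genes) and 54 of 70 with 10 counts in every library (beside 49.13%), and ranged from 52 (without siControl replicate 3, beside 18.78%) to 110 (34.85%). The ratio of mitochondrial shares, 4.77, was 365 as a share of all gene counts and 3.25 to 6.25 with 1 library left out. The ratio of the rRNA share of mitochondrial counts, 1.149, ranged from 0.962 to 1.34, and that of the light-strand share of mitochondrial counts (minus-strand genes), 1.02, from 0.891 to 1.33. These ratios turned without siControl replicate 1 (0.962, rRNA), siAATF replicate 2 (0.963, rRNA), siControl replicate 2 (0.891, minus strand), siControl replicate 3 (0.941, minus strand) and siAATF replicate 3 (0.980, minus strand). The causes were not tested.

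With library size alone the log2 fold change turned for mt-Tn (-0.29), Tfam (-0.39), Polrmt (-0.55), Nsun4 (-0.56), Tufm (-0.43), Ndufs1 (-0.43), Uqcrh (-0.063), Cox8a (-0.36), Slirp (-0.37), Polg (-1.25), Twnk (-0.062) and Aatf (-0.92), and after thinning for Polg (-1.04). Within mitochondrial counts, values near 0 turned when 1 library was left out, where the ranges were -0.40 to 0.062 for mt-Rnr1, -0.015 to 0.53 for mt-Rnr2, -0.27 to 0.069 for mt-Atp6, -0.23 to 0.35 for mt-Co3, -0.19 to 0.46 for mt-Nd6, -0.073 to 0.17 for mt-Cytb and -1.11 to 9.45 for mt-Tl1, the last with 0 siControl counts at its upper end. mt-Atp6 also turned when scaled by protein genes (0.0080) and mt-Tl1 with the replicate block (0.015).

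Replicate numbers were shared by both groups, but same-numbered libraries did not deviate together (r = 0.096, 0.133 and -0.026), so they were not treated as pairs. With the replicate block 25 mitochondrial genes were called (mt-Tn, adjusted p = 0.0124, and mt-Tl2, 0.0386, gained and mt-Ti, 0.0534, lost), mt-Te was called within mitochondrial counts (0.0188), and 103 genes were called in the nuclear lists, beside 37.55% of all genes. Depth limits the siControl values of mt-Atp8, mt-Nd3, mt-Nd4l and most tRNAs.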
